A study of Mus musculus with 28 samples.

Results

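The genes described here encode the mouse proteasome, its activators and its assembly factors. They are the rows whose gene symbol begins with Psma to Psmg followed by a digit. Of 55 such rows, 4 pseudogenes were left out, and 3 of the remaining 51 had a mean under 10 normalized counts over the 20 samples of the BMP table. The other 48 are the members, of 29413 genes in that table. They comprise 7 subunits of the alpha ring, 4 structural beta subunits, 3 constitutive and 3 inducible catalytic beta subunits, 17 subunits of the 19S particle, 3 chaperones of the 19S base and 4 of the 20S core, 4 activator genes and the inhibitor Psmf1. Psmc3ip and Psme3ip1 match by symbol and are not proteasome subunits. Symbols and identifiers are those of the files, for example Psmb8 (ENSMUSG00000024338), Psmb9 (ENSMUSG00000096727) and Psmb10 (ENSMUSG00000031897).

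Expression was measured by mRNA sequencing in small-intestinal organoids, which are epithelial cultures grown from crypts in a gel, of wild-type C57BL/6 mice. All organoids were seeded in ENR medium without added Bmp or Tgfb. In the BMP table, 4 samples were left untreated, 4 received recombinant BMP2, and 3 each received BMP3, BMP4, BMP5 or BMP7. A second table holds 3 untreated samples and 3 given Tgfb, and every ligand is labelled as 500 ng/ml for 24 h. Another table holds 1 sample of fresh mesenchymal cells from the duodenum of a PdgfraH2BeGFP mouse and 1 sample of such cells after immortalisation with a viral E6 gene, puromycin selection and a sort on eGFP. The labels do not say whether organoid samples came from separate mice or cultures, so p-values measure the spread between these samples, which may be technical. The series title names enterocyte differentiation at the villus tip as the question.

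The 26S proteasome degrades proteins that carry ubiquitin chains. Its 20S core is a stack of rings in which 3 beta subunits, Psmb5, Psmb6 and Psmb7, cut peptide bonds. Interferon signalling is known to induce Psmb8, Psmb9 and Psmb10, which replace these catalytic subunits to form the immunoproteasome and favour peptides that fit MHC class I molecules. The 19S particle caps the core, with ATPases (Psmc genes) that unfold the substrate and non-ATPase subunits (Psmd genes) that bind and remove ubiquitin. The chaperones Psmg1 to Psmg4 assemble the core rings, and Psme genes encode alternative caps.

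Promoter windows of the immunoproteasome genes are shown because Psmb8 and Psmb9, which lie on chromosome 17 on opposite strands, differed in how they responded to the ligands. Each window runs from 250 bases before to 50 bases after the RefSeq start, 5′ to 3′, in build GRCm38.p6, which differs from the build of the processing notes. Psmb8 is read at chr17:34197945-34198244 on the plus strand, Psmb9 at chr17:34187281-34187580 and Psmb10 at chr8:105938343-105938642, both on the minus strand. Capitals mark a match to TTCNNNGAA, a form of the STAT motif.
Psmb8: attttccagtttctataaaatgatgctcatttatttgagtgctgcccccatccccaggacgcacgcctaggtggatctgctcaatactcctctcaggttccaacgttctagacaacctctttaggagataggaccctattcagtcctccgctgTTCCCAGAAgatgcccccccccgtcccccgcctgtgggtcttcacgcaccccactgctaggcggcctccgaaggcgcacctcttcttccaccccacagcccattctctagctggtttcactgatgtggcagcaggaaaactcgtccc
Psmb9: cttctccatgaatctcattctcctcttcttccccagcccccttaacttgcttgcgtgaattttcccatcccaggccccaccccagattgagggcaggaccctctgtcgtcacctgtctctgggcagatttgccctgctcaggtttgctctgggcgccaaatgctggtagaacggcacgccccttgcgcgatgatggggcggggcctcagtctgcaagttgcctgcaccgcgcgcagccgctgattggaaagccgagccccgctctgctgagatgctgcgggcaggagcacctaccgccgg
Psmb10: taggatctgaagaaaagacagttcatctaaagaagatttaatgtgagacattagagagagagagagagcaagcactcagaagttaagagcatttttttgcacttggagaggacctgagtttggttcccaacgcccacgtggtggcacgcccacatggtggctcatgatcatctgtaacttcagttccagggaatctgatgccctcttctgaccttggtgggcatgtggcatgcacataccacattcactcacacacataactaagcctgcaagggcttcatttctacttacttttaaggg

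RefSeq windows were found for 41 of the 48 members, and 4 motifs were searched on both strands without regard to overlap between motifs. The STAT form was present in 1 of the 3 immunoproteasome windows, that of Psmb8, in 7.32% of the 41 member windows and in 9.55% of 27025 genes. The interferon regulatory factor form GAAANNGAA was in 0 of these 3 windows, in 17.1% of member windows and in 9.76% of all genes. TGACNNNGC, a form bound by Nfe2l1 and Nfe2l2, was in 14.6% of member windows and 14% of all genes, and Psmb5 carried it. CCAAT was in 36.6% of member windows, against 41.1% of all genes, and Psmb9 carried it on 1 strand. Member shares thus lay within a factor of 2 of those of all genes, and a match is a string of letters, not a tested site.

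Depth was even, at 21356200 to 24786375 recovered reads per BMP sample, where 1 read was worth 0.826 to 1.28 normalized counts. The depth of the 8 samples given in TPM, a share of all transcripts corrected for length, is unknown. After the authors' scaling the samples differed in their sums, with 19250832 to 20518942 normalized counts in controls, 26268636 to 29004576 in BMP2 samples and 25574455 to 26979289 in BMP4 samples. Setting every sample to the same total moved the median log2 change of all genes tested from -0.03 to -0.48 with BMP2 and from 0.04 to -0.35 with BMP4. Small changes of highly expressed members therefore take their sign from the scaling, and changes are read against these medians. All 7 epithelial markers were above a mean of 10 in every organoid group. Of 12 immune markers, 3 passed that filter over the 20 samples, and the list summed to 105 to 122 normalized counts in controls, 62.4 to 140 with BMP2 and 162 to 273 with BMP4.

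Under the authors' scaling BMP2 changed the largest number of proteasome genes of the 5 BMP ligands, and BMP3 gave no call. With totals set equal, BMP2 and BMP4 each gave 36 calls, and after quantile normalization 30 and 29. Of all 14746 genes tested, 11410 and 9964 were called with totals equal, and 10936 and 9728 after quantile normalization. A gene is called here when limma's adjusted p was under 0.05, with adjustment over all genes tested. With BMP2, 24 members were higher and 9 lower, beside 75.1% of all genes called. With BMP4, 10 were higher and 6 lower, beside 65.1%. BMP5 gave 2 higher and 3 lower beside 26.3%, and BMP7 gave 3 higher and 5 lower beside 32.4%. In the fit with replicate numbers as blocks, BMP5 gave 4 higher and 4 lower. The BMP5 count fell to 3 without control III, control IV or BMP5 III and to 2 without BMP5 VI. The BMP7 count was 4 without control II or control VI, 5 without control III, and 2 without BMP7 II or BMP7 VI. BMP3 gave 0 calls by limma, edgeR and DESeq2 and 0 members at an unadjusted limma p under 0.05, beside 0% of all genes. Tgfb gave 7 higher and 5 lower among the 46 members at a mean of at least 10 TPM, beside 64.3% of all genes. On the deposited values, without further scaling, every one of these shares of called members was at or below that of all genes.

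The median member moved little. Limma gave a log2 change of 0.20 under BMP2, 0.08 under BMP4, 0.02 for both BMP3 and BMP5, 0.05 under BMP7 and 0.03 in the Tgfb samples. At the same total the median with BMP2 was -0.26 and with BMP4 -0.32, and quantile normalization gave -0.17 and -0.21. The split of BMP2 calls changed with it, from 24 higher and 9 lower to 5 higher and 31 lower when totals were equal and 6 higher and 24 lower with quantile-normalized values. With BMP4 it changed from 10 higher and 6 lower to 0 higher and 36 lower, and to 3 higher and 26 lower. Over all 14746 genes tested, the same total gave 3627 higher and 7783 lower with BMP2, and 3100 and 6864 with BMP4. Quantile normalization gave 5396 higher and 5540 lower with BMP2, and 4799 and 4929 with BMP4. Among the changes with the same direction under all 3 scalings were the falls of Psmg1, Psmg2, Psmg3, Psmg4 and Psmc3ip with BMP2. The rises of Psmd8 and Psmd10 and the falls of Psmb9, Psmb10, Psmd5 and Psme3 with BMP2 were others.

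**Figure D1:**
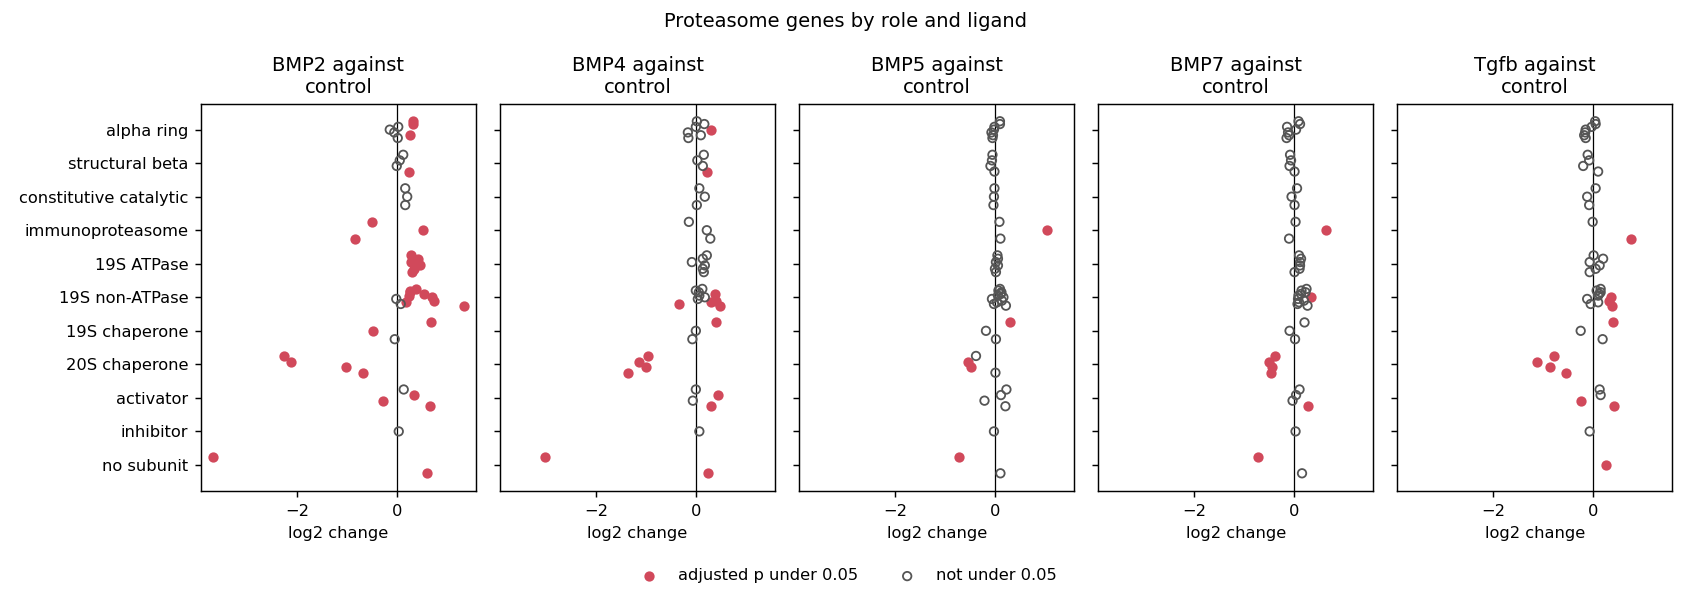
Each point is 1 proteasome gene, placed by its role on the vertical axis and by its log2 change against control on the horizontal axis, with 1 panel each for BMP2, BMP4, BMP5, BMP7 and Tgfb. Filled points passed an adjusted p of 0.05; the 4 chaperones of the 20S core lie at or left of 0 in these panels except for Psmg4 with BMP5 at 0.01, and Psmb8 lies right of 0 in every panel.

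In untreated organoids the inducible catalytic subunits were a minor part of the proteasome transcripts. In TPM, which is per length and so allows genes to be compared, the 14 constitutive core subunits ranged from 65.3 to 371 with a median of 148 (3 control samples). Psmb10 stood at 63.1 ± 9.39 TPM, Psmb9 at 11.4 ± 2.56 and Psmb8 at 10.2 ± 1.61 (SD, n = 3 each). Of the 48 members only Psmc3ip had a lower mean than these last 2, whose ranges overlapped. Psmb8 made up 8.89% ± 1.35 of Psmb8 and Psmb5 together, Psmb9 6.98% ± 1.07 of Psmb9 and Psmb6, and Psmb10 32.4% ± 2.37 of Psmb10 and Psmb7 (SD, n = 3). At the top of the order were Psmb4, with 371 ± 32 TPM, and Psma3, with 347 ± 48.9, and their ranges overlapped as well. In the whole order of 48 genes, 9 of 47 pairs of neighbours did not overlap between their control ranges.

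The 3 immunoproteasome genes did not respond as a unit. In limma's fits of the deposited values Psmb8 was higher with BMP2, BMP5, BMP7 and Tgfb. Psmb9 and Psmb10 were lower with BMP2 there and passed no test with the other ligands. At the same total Psmb10 was also called lower with BMP4 (-0.54). All 3 differed among the 5 BMP ligands by limma's F-test, with F = 5.36 and adjusted p = 0.00669 for Psmb8, F = 8.54 and 0.000706 for Psmb9, and F = 5.57 and 0.00563 for Psmb10, beside 84.1% of all genes. The 3 constitutive counterparts passed neither that test nor any comparison with control in the limma fit under the authors' scaling. Other fits called some of them: with BMP2, DESeq2 called Psmb5 (0.18, adjusted p = 0.0226) and Psmb6 (0.22, 0.0361) higher, the fit with blocks called all 3 higher (0.17 to 0.21), and at the same total all 3 were called lower (-0.29 to -0.25). With BMP2 all 3 immunoproteasome genes and 30 of the 45 other members were called, beside 75.1% of all genes, so the counts do not set these 3 genes apart. Their median log2 change was -0.50 against 0.21.

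Psmb8, the inducible counterpart of the chymotrypsin-like Psmb5, was at 100, 92.9, 117 and 136 normalized counts in control samples II, III, IV and VI. BMP5 samples II, III and VI held 193, 201 and 312, and BMP7 samples 145, 148 and 246. Both groups lay above every control. Its log2 change was 1.05 ± 0.225 with BMP5 (SE, adjusted p = 0.00188) and 0.65 ± 0.225 with BMP7 (adjusted p = 0.0329). In every BMP group that has a sample VI, that sample was the highest for Psmb8, as it was in controls. Without BMP7 sample VI the change was 0.41 (adjusted p = 0.219), without control II it was 0.61 (0.072) and without control III 0.57 (0.0903), so the BMP7 call rested on these libraries. The BMP5 change ranged from 0.83 to 1.18 over the fits that left out 1 library and was called in each.

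BMP2 samples II, III, IV and VI held 124, 147, 176 and 204 normalized counts of Psmb8, which overlaps the controls. On the log2 scale the change was 0.53 ± 0.209 (adjusted p = 0.0277). At the same total it was 0.08 (adjusted p = 0.732), and after quantile normalization 0.97 (0.00026), so its size depended on the scaling. It lost its call without control II (0.49, adjusted p = 0.0661), control III (0.45, 0.0827), BMP2 IV (0.49, 0.0653) or BMP2 VI (0.42, 0.0956). BMP4 samples held 122, 110 and 159, and BMP3 samples 121, 99.7 and 120, and neither group passed the test (log2 changes of 0.22 and 0.04). Psmb8 did not differ past the threshold between BMP2 and BMP4, with a log2 difference of 0.31 and a 95% interval from -0.16 to 0.78. After quantile normalization Psmb8 (0.50, adjusted p = 0.0492) and Psmb9 (0.56, 0.0446) were called higher with BMP4. An antisense gene, Gm20496, overlaps Psmb8 exons in GENCODE M21, and the strand used in counting is not given in the sources used here.

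With Tgfb, Psmb8 rose from 8.86, 9.86 and 12 TPM in controls to 14.3, 18.4 and 21.9 TPM, without overlap. The log2 change was 0.76 ± 0.173 (SE, adjusted p = 0.00667), and it was 0.63 to 0.92 when 1 library was left out. As a share of Psmb8 and Psmb5 together this was 14.2% ± 1.73 against 8.89% ± 1.35 (SD, n = 3 each). Psmb10 held 56.5, 58.8 and 73.8 TPM in controls and 56.7, 62 and 67.7 with Tgfb, a log2 difference of -0.01 with a 95% interval from -0.30 to 0.27. Psmb9 was under the filter of 10 TPM. With a filter of 1 TPM its log2 difference was -0.44, with a 95% interval from -1.16 to 0.28 and an adjusted p of 0.254 by limma, from 8.5, 13.4 and 12.2 TPM to 5.09, 8.18 and 11.9.

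Psmb9, the inducible counterpart of Psmb6, was at 92.3, 78, 65.6 and 112 normalized counts in controls and at 30.7, 44.8, 60 and 62 with BMP2. The 4 BMP2 samples were the 4 lowest of all 20. Its log2 change was -0.83 ± 0.203 (SE, adjusted p = 0.00116), -1.28 at the same total and -0.49 after quantile normalization (adjusted p = 0.0504). BMP4 samples held 119, 97 and 98.1, and Psmb9 was lower with BMP2 than with BMP4 by a log2 difference of -1.11 ± 0.219 (adjusted p = 0.00019), with -1.24 to -0.91 when 1 library was left out. BMP3, BMP5 and BMP7 samples held 74.7 to 101, within the control range. An exon of Psmb9 overlaps Tap1 on the opposite strand, and Tap1 was higher with BMP2 by 0.90, the direction opposite to that of Psmb9.

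Psmb10, the inducible counterpart of Psmb7, was at 530, 523, 538 and 724 normalized counts in controls and at 375, 387, 393 and 468 with BMP2, without overlap. On the log2 scale the change was -0.50 ± 0.132 (SE, adjusted p = 0.00209), with -0.57 to -0.39 when 1 library was left out, -0.96 at the same total and -0.34 after quantile normalization. Against BMP4, at 540, 454 and 568, the difference was -0.36 ± 0.143 (adjusted p = 0.034). That call was lost without BMP2 II (-0.32, adjusted p = 0.0753), BMP2 III (-0.34, 0.0687), BMP2 IV (-0.34, 0.0622), BMP4 II (-0.33, 0.0951) or BMP4 VI (-0.29, 0.124), and with edgeR (-0.31, 0.0633). BMP5 samples held 515 to 703 and BMP7 samples 516 to 688, both within the range of the controls apart from the lowest sample of each.

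**Figure D2:**
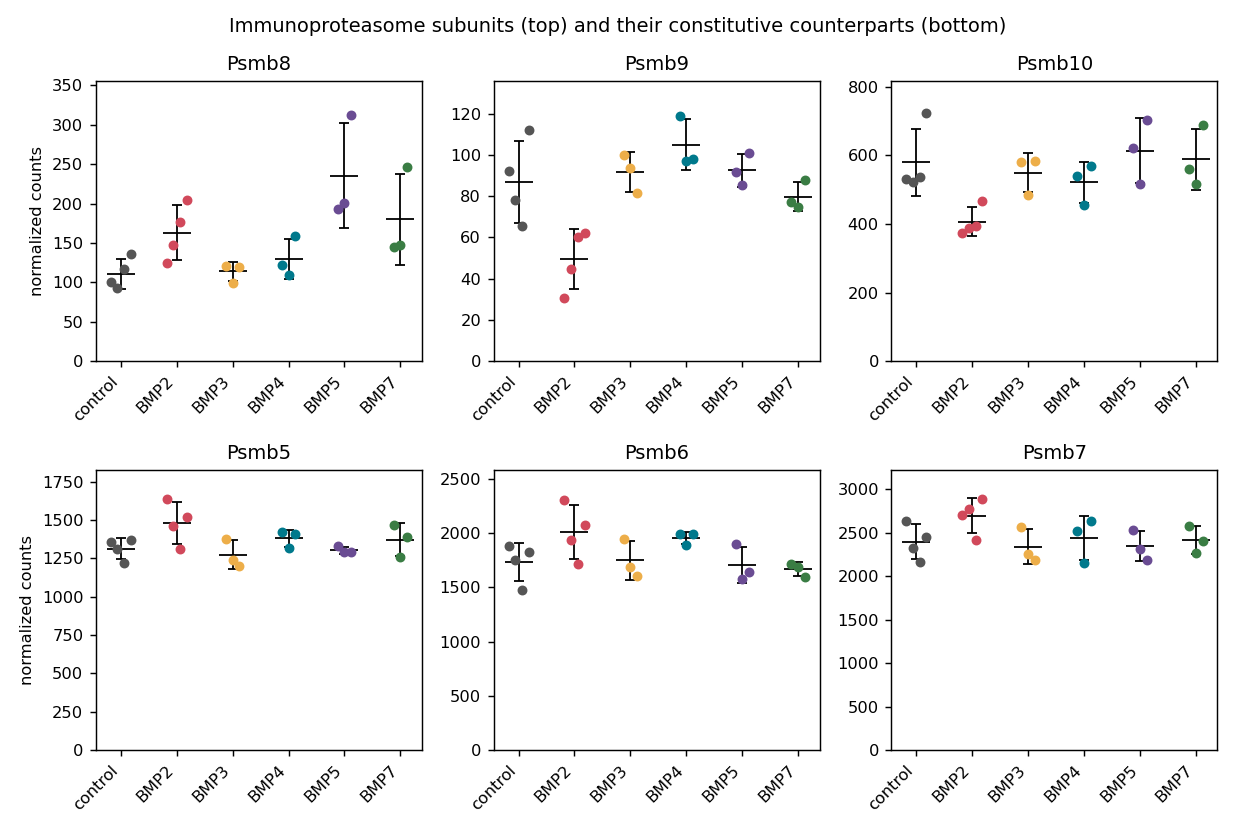
Normalized counts (vertical axes, from 0) of each inducible catalytic subunit, above, and its constitutive counterpart, below, in the 6 groups of the BMP table. Points are samples in the order of their replicate numbers, and bars are the mean and SD; Psmb8 is highest with BMP5, and Psmb9 and Psmb10 are lowest with BMP2, while the lower row stays between 1200 and 2890.

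The constitutive counterparts changed less. Psmb5 was at 1360, 1310, 1220 and 1370 normalized counts in controls and at 1290 to 1330 with BMP5. Psmb6 was at 1480 to 1880 in controls and 1720 to 2310 with BMP2, and Psmb7 at 2160 to 2640 and 2420 to 2890. Their log2 changes with BMP2 were 0.17, 0.21 and 0.17, and none passed the test (adjusted p = 0.0545, 0.0567 and 0.0868 by limma). At the same total they were -0.29, -0.25 and -0.29. Exons of Psmb7 overlap Nek6 on the opposite strand.

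A ratio of 2 genes within a sample does not change when a sample is multiplied by a constant. The log2 ratio of Psmb8 to Psmb5 averaged -3.56 ± 0.25 in controls (SD, n = 4) and -2.50 ± 0.398 with BMP5 (SD, n = 3), a difference of 1.06. The log2 ratio of Psmb9 to Psmb6 averaged -4.32 ± 0.214 in untreated and -5.36 ± 0.6 in BMP2 samples (SD, n = 4 each), a difference of -1.04. For Psmb10 to Psmb7 it was -2.06 ± 0.237 and -2.73 ± 0.126, a difference of -0.67. In these 3 comparisons the groups did not overlap and the two-sided exact permutation p was 0.0286, the smallest that 4 samples against 3 or 4 can give. Over the 21 ratio comparisons their adjusted p was 0.15. Over all 6 groups of the BMP table the permutation test of the F ratio gave adjusted p = 0.0112, 0.00595 and 0.00288 for the 3 ratios in that order (3 tests, 100000 permutations). The first of these rested in part on BMP5 VI, without which the F ratio was 3.08 (adjusted p = 0.0508, permutation test), and that of Psmb10 to Psmb7 fell to 1.64 after quantile normalization (0.213).

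Across the 20 BMP samples, Pearson's r on log2 values was 0.0292 between Psmb8 and Psmb9, 0.327 between Psmb8 and Psmb10 and 0.74 between Psmb9 and Psmb10. The samples share groups and replicate numbers, so these are descriptions. Psmb8 was most like Capn1 and Lrrc4 among all genes tested (r = 0.87 each, 20 samples), Psmb9 most like Dpagt1 (0.921) and Psmb10 most like Entpd4 (0.902). Psme1, a subunit of the PA28 activator that interferon is also known to induce, had r = 0.834 with Psmb8. With Psmb9 and Psmb10 its r was -0.00604 and 0.394. Psme2, the other subunit of that activator, had r = 0.256 with Psmb8, -0.207 with Psmb9 and -0.25 with Psmb10.

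On the deposited values, without further scaling, the constitutive 20S core changed little. Of its 14 genes, 4 were called higher with BMP2, and 2 with BMP4 beside 33.7% of all genes called higher. With BMP3, BMP5, BMP7 or Tgfb 0 were called, beside 0%, 26.3%, 32.4% and 64.3% of all genes. With these ligands 0 had an unadjusted limma p under 0.05. The BMP2 calls were Psma1, Psma2, Psma6 and Psmb4, with log2 changes of 0.32, 0.32, 0.26 and 0.24, beside 36.8% of all genes called higher. On these values both alpha and beta genes kept within -0.20 and 0.32 of control in every comparison with a ligand. At the same total 0 of the 14 were higher and 11 lower with BMP2, and 0 higher and 12 lower with BMP4, and the median moved from 0.15 to -0.31 and from 0.08 to -0.32. Over all 14746 genes tested, that scaling gave 3627 higher and 7783 lower with BMP2, and 3100 and 6864 with BMP4. The medians of all genes were then -0.48 and -0.35. After quantile normalization 0 of the 14 were higher and 10 lower with BMP2, with a median of -0.24 against 0.00 for all genes. Over all genes 5396 were then higher and 5540 lower. Of the 7 alpha genes 0 were higher and 5 lower with BMP4, and 3 were lower with BMP7. Of the 4 structural beta genes 2 and 1 were lower, and of the 3 catalytic genes 1 and 0. Over all genes 4929 and 2938 were lower. In the fit with blocks Psma5 (-0.20, adjusted p = 0.0207) and Psma7 (-0.19, 0.00943) were called lower with BMP4, and Psma7 with BMP7 (-0.19, 0.0173).

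Psma4, which helps to form the gate of the core, differed between BMP2 and BMP4. Its controls held 2790, 2620, 2510 and 2810 normalized counts, BMP2 samples 2460, 2550, 2260 and 2490, and BMP4 samples 3420, 3130 and 3330. The BMP4 samples lay above all others. The log2 change with BMP4 was 0.30 ± 0.0671 (adjusted p = 0.000757), which became -0.10 at the same total and -0.09 after quantile normalization. BMP2 differed from BMP4 by -0.43 ± 0.0671 (adjusted p = 1.45e-05), beside 66.8% of all genes called, with 33.4% called lower. Psma4 shares an exon with AY074887 on the opposite strand, which averaged 1.03 normalized counts.

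Genes of the 19S particle were higher with BMP2 under the authors' scaling. Of 17, 15 were called higher with BMP2 and 0 lower, beside 36.8% and 38.4% of all genes, with a median log2 change of 0.30. All 6 ATPase genes were among them, from 0.28 for Psmc1 to 0.47 for Psmc4. The split of calls changed under the other scalings. At the same total 3 were higher and 8 lower, beside 3627 and 7783 of 14746 genes, with a median of -0.16 against -0.48 for all genes. After quantile normalization 3 were higher and 7 lower, beside 5396 and 5540, with a median of -0.14 against 0.00. At the same total the 19S median thus lay above that of all genes, as under the authors' scaling (0.30 against -0.03). After quantile normalization it lay below. With BMP4, 4 were higher and 1 lower, beside 33.7% and 31.4% of all genes. At the same total 0 were higher and 13 lower with BMP4, beside 3100 and 6864 of 14746 genes. BMP5 gave 0 calls by limma and 0 unadjusted p under 0.05, BMP7 gave 1 higher and Tgfb 3 higher, beside 19.2% and 31.4% of all genes called higher. In the fit with blocks Psmc1 was also called higher with BMP4 (0.19, adjusted p = 0.0193).

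Psmd8, a small subunit of the 19S lid, had the largest rise of the 48 members with BMP2 under the authors' scaling, whereas after quantile normalization that of Psmb8 was larger. Controls held 2340, 2150, 2010 and 2250 normalized counts and BMP2 samples 6750, 6400, 4290 and 5060. The groups were far apart, and BMP2 samples II and III were above IV and VI. The log2 change was 1.34 ± 0.106 (adjusted p = 1.37e-09), 0.88 at the same total and 0.86 after quantile normalization. BMP4 samples held 3080, 3070 and 3050, a log2 change of 0.49 ± 0.115 (adjusted p = 0.00103) that shrank to 0.09 at the same total and 0.13 after quantile normalization. BMP2 exceeded BMP4 by 0.85 ± 0.115 (adjusted p = 2.77e-06). Tgfb samples held 113, 123 and 129 TPM against 85.7, 93.2 and 99.2 in controls, a log2 change of 0.38 ± 0.0876 (adjusted p = 0.00687).

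Psmd4, the ubiquitin receptor also known as Rpn10, was at 1810, 1650, 1650 and 1920 normalized counts in controls and at 3120, 3040, 2520 and 3060 with BMP2. Limma gave a log2 change of 0.74 ± 0.0921 (adjusted p = 7.03e-07), and 0.28 at the same total. Psmd2, the large scaffold of the 19S base, was at 5700, 5550, 5200 and 5850 in controls and at 8540, 9460, 8330 and 10300 with BMP2. Its log2 change was 0.71 ± 0.0971 (adjusted p = 2.19e-06), 0.25 at the same total and 0.10 after quantile normalization (adjusted p = 0.238). Neither gene overlapped between control and BMP2 samples. Psmd2 was also called higher with BMP7 (0.35, adjusted p = 0.0157) and Tgfb (0.36, 0.00878), and its BMP7 call was lost without BMP7 II (0.30, 0.0805) or BMP7 VI (0.32, 0.0642). Psmd13, a subunit of the lid, changed by 0.55 with BMP2 and 0.39 with BMP4, and by 0.09 and -0.01 at the same total. Psmd7, the partner of the deubiquitinase Psmd14, was the only 19S subunit gene called lower against control under the authors' scaling, by -0.33 ± 0.115 with BMP4 (adjusted p = 0.0174).

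The chaperones of the 19S base diverged. Psmd10, also known as gankyrin, was at 432, 379, 377 and 449 normalized counts in controls, 591, 698, 623 and 714 with BMP2, and 537, 532 and 552 with BMP4. Both treated groups lay above all controls, with log2 changes of 0.68 ± 0.0873 (adjusted p = 9.94e-07) and 0.40 ± 0.0943 (0.000982). At the same total these were 0.22 (adjusted p = 0.0127) and 0.01 (0.96), and after quantile normalization 0.79 and 0.50. BMP5 samples held 472, 524 and 511, a log2 change of 0.30 ± 0.0943 (adjusted p = 0.0255). That call was lost without control III (0.26, 0.0769), control IV (0.26, 0.0718), BMP5 III (0.27, 0.109) or BMP5 VI (0.28, 0.0872). Tgfb gave 24, 24.3 and 26.8 TPM against 17.4, 19.8 and 19.7, a log2 change of 0.39 ± 0.0838 (adjusted p = 0.0056).

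Psmd5 moved the other way with BMP2, from 999, 953, 933 and 1050 normalized counts to 648, 726, 695 and 754. Its log2 change was -0.48 ± 0.0875 (adjusted p = 6.8e-05), -0.94 at the same total and -0.52 after quantile normalization. BMP4 samples held 845, 943 and 1190 and overlapped the controls. On the deposited values the remaining chaperone, Psmd9, was called with no ligand, and its log2 changes ran from -0.07 to 0.19. At the same total Psmd9 was called lower with BMP2 (-0.49) and BMP4 (-0.46), and Psmd5 with BMP4 (-0.40). The medians of all genes were then -0.48 and -0.35.

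The chaperones of the 20S core gave the most uniform response. Psmg1, Psmg2, Psmg3 and Psmg4 were all called lower with BMP2, BMP4, BMP7 and Tgfb, beside 38.4%, 31.4%, 13.2% and 32.9% of all genes called lower. With BMP5, Psmg2 and Psmg3 were called lower, beside 9.87%, and 0 of the 4 with BMP3. BMP2 gave these 4 a median log2 change of -1.57, BMP4 -1.08, BMP5 -0.44, BMP7 -0.45 and Tgfb -0.83. The median was -2.03 and -1.47 for BMP2 and BMP4 at the same total, and -1.16 and -0.87 after quantile normalization, where Psmg4 lost its call with BMP2 (-0.27, adjusted p = 0.127).

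Psmg1, which pairs with Psmg2 to hold the alpha ring, was at 518, 514, 443 and 510 normalized counts in controls and at 128, 81.8, 87 and 121 with BMP2. BMP4 samples held 273, 230 and 268, BMP5 samples 422, 394 and 328, and BMP7 samples 388, 398 and 352. Each of these groups lay below every control. On the log2 scale the change was -2.26 ± 0.135 with BMP2 (adjusted p = 2.81e-11) and -0.95 ± 0.145 with BMP4 (1.43e-05), and the difference between the 2 ligands was -1.31 ± 0.145 (2.21e-07). With BMP5 it was -0.38 (adjusted p = 0.0593), and -0.44 in the fit with blocks (0.0108). With BMP7 it was -0.39 (adjusted p = 0.0499), a value so close to the threshold that 13 of 20 fits without 1 library lost the call, and these gave -0.44 to -0.33.

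Psmg2 was at 456, 434, 454 and 449 normalized counts in controls and at 96.5, 98.5, 102 and 111 with BMP2. BMP4 samples held 185, 178 and 250, BMP5 samples 352, 313 and 265, and BMP7 samples 299, 333 and 319. BMP2 samples were lowest and BMP4 samples next, as for Psmg1, and BMP3 samples (474, 487 and 465) lay above the controls. Log2 changes were -2.13 ± 0.11 (adjusted p = 4.91e-12), -1.15 ± 0.119 (1.28e-07), -0.54 ± 0.119 (0.00234) and -0.50 ± 0.119 (0.00341) for BMP2, BMP4, BMP5 and BMP7. In the Tgfb table Psmg2 went from 29.4, 32.2 and 32.1 TPM to 14.5, 14.3 and 12.5, a log2 change of -1.13 ± 0.084 (adjusted p = 3.08e-05). All of these Psmg2 calls held when any 1 library was left out.

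Psmg3 and Psmg4, the second pair of core chaperones, split the ligands in another way. Psmg3 was at 332, 334, 321 and 358 normalized counts in controls, 160, 155, 173 and 177 with BMP2, and 175, 131 and 202 with BMP4. Its log2 change was -1.01 with both (SE 0.123 and 0.133), and the difference between them was -0.01 with a 95% interval from -0.29 to 0.27. Psmg4 was at 118, 94.6, 94 and 104 in controls, 67, 71.6, 55.3 and 60.7 with BMP2, and 33.2, 46.8 and 38.3 with BMP4. It was lower with BMP4 than with BMP2, and the difference of BMP2 from BMP4 was 0.68 ± 0.166 (adjusted p = 0.00134), opposite in sign to those of Psmg1 and Psmg2. BMP5 samples held 120, 93.5 and 97.6 Psmg4, a range that overlaps the controls, and BMP7 samples 67.2, 85.6 and 69.3, below every control. Psmg3 calls were lost without BMP5 VI for BMP5 (-0.40, adjusted p = 0.0745) and without BMP7 II (-0.38, 0.0797) or BMP7 VI (-0.38, 0.0798) for BMP7. The Psmg4 call with BMP7 (-0.47, adjusted p = 0.0377) was lost without control II (-0.40, 0.1), control VI (-0.46, 0.0732), BMP7 II (-0.40, 0.14) or BMP7 VI (-0.43, 0.124). That with Tgfb (-0.54, 0.0177) was lost without control II (-0.47, 0.0622) or control III (-0.48, 0.0563).

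**Figure D3:**
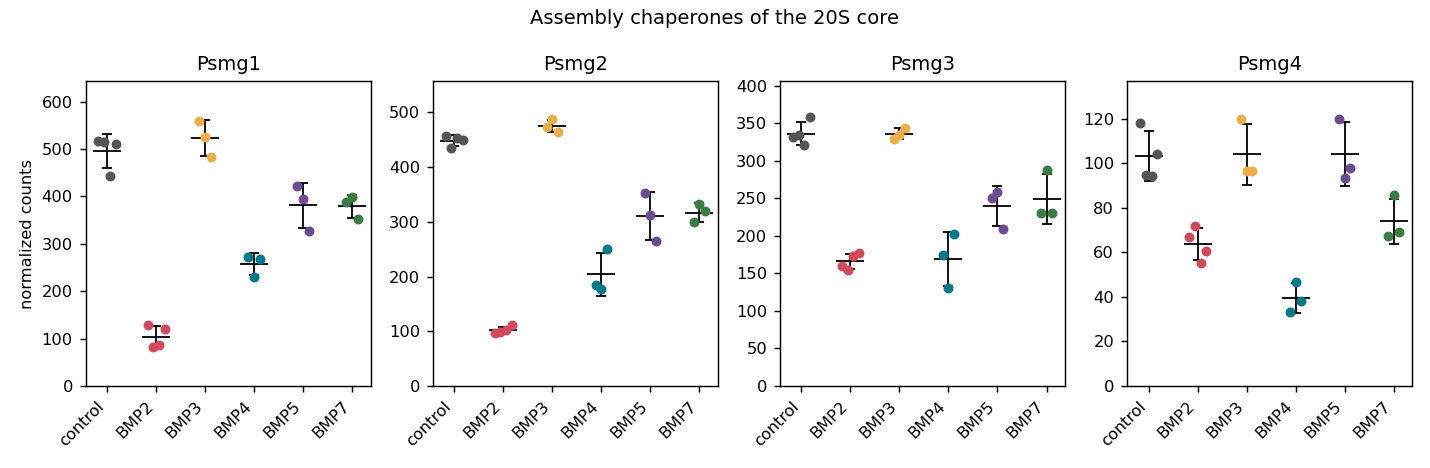
Normalized counts (vertical axes, from 0) of the 4 assembly chaperones of the 20S core in each sample of the BMP table. Points are samples and bars are the mean and SD; Psmg1 and Psmg2 are lowest with BMP2, Psmg4 is lowest with BMP4, and BMP3 samples lie beside the controls for all 4 genes.

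Psmg1 was most like Dtd1, Rfc5, Slc7a4 and Cd59b among all genes tested (Pearson's r of 0.996, 0.992, 0.992 and 0.992 over the 20 BMP samples), and Psmg2 most like Lbr, Dhodh and Adsl (0.993 each). These 2 chaperones were chosen for this after their values were seen. Pomp, the further core chaperone that does not carry a Psm symbol, was higher with BMP2 by 0.35 and with BMP4 by 0.30 under the authors' scaling. There it did not share the direction of the Psmg genes. Changes of this size can turn with the scaling, and Pomp was not followed under the others.

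**Figure D4:**
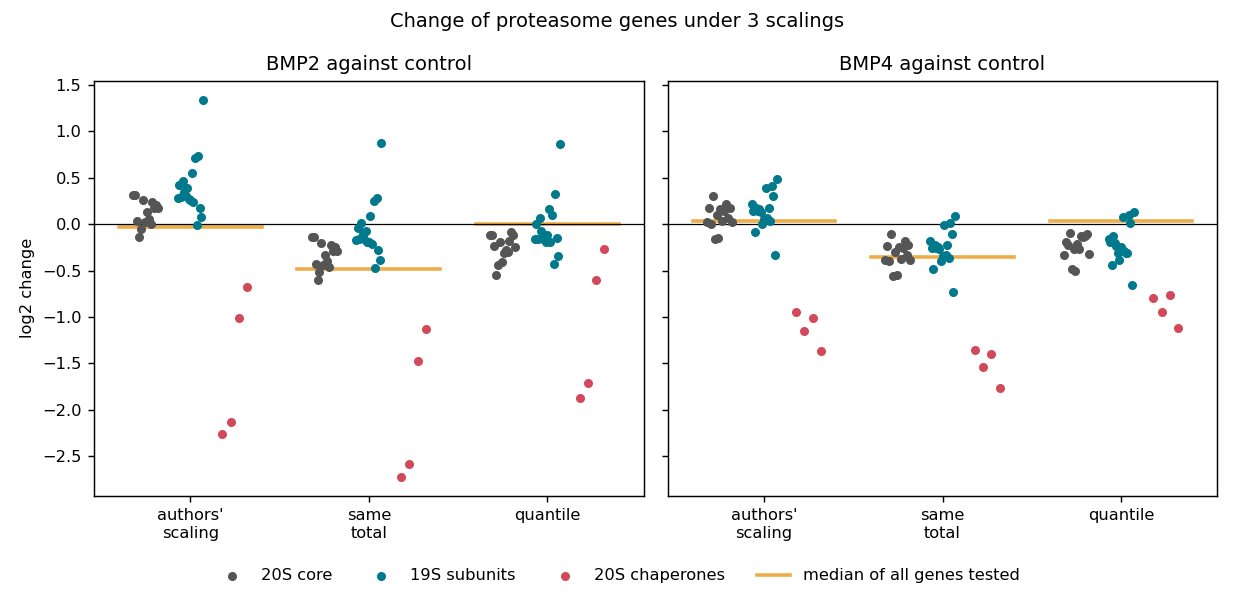
Log2 change (vertical axis) of core subunits, 19S subunits and core chaperones with BMP2 and BMP4 under 3 scalings (horizontal axis), with 1 point per gene and a bar at the median of all genes tested. Core and 19S genes straddle or cross 0 depending on the scaling, while the 4 chaperones stay below 0 in each.

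Among the alternative caps, Psme4, which encodes PA200, was higher with several ligands. Its controls held 4830, 4660, 4840 and 4400 normalized counts, BMP2 samples 6530, 8120, 8170 and 7190, and BMP4 samples 5860, 5890 and 5640. Neither group overlapped the controls. The log2 changes were 0.67 ± 0.0758 (adjusted p = 1.7e-07) and 0.31 ± 0.0818 (0.00279). They became 0.22 (0.0324) and -0.09 (0.407) at the same total and 0.12 (0.175) and -0.16 (0.0909) after quantile normalization. Psme4 was also called with BMP7 (0.27, adjusted p = 0.017) and Tgfb (0.42, 0.00829), and with BMP5 in the fit with blocks (0.24, 0.00959). Its BMP7 call was lost without control VI (0.24, 0.0527), BMP7 II (0.24, 0.0781) or BMP7 III (0.25, 0.0528).

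Of the PA28 alpha and beta genes, Psme1 and Psme2, only Psme2 was called under the authors' scaling without blocks, with BMP2 and BMP4. Psme2 was at 1270, 1180, 1460 and 1630 normalized counts in controls, 1790, 1910, 1600 and 1710 with BMP2, and 1990, 1880 and 1740 with BMP4. BMP4 samples lay above the controls and BMP2 samples overlapped them. Log2 changes were 0.35 ± 0.0981 (adjusted p = 0.00365) and 0.44 ± 0.106 (0.00124). At the same total they were -0.11 (limma's adjusted p = 0.31) and 0.04 (0.742). After quantile normalization they were 0.06 (0.597) and 0.18 (0.154), so both calls were lost under either scaling. Psme1, from 1430 to 1940 in controls and 1680 to 2160 with BMP5, was called with no ligand in limma's fits without blocks or further scaling. In the fit with blocks it was called with BMP5 (0.21, adjusted p = 0.0361). At the same total Psme1 was called lower with BMP2 and BMP4, and after quantile normalization with BMP4. Psme3, the PA28 gamma of the nucleus, was called lower with BMP2 (-0.28 ± 0.0932, adjusted p = 0.0102) and Tgfb (-0.25 ± 0.0814, 0.0282). The Tgfb call was lost without control II (-0.23, 0.102), control III (-0.22, 0.0984), Tgfb I (-0.26, 0.0519), Tgfb II (-0.26, 0.062) or Tgfb III (-0.24, 0.0675). The inhibitor Psmf1 changed by -0.07 to 0.07 on the deposited values and was called with no ligand there. At the same total it was called lower with BMP2 (-0.42) and BMP4 (-0.33). The medians of all genes were then -0.48 and -0.35.

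Of the members that are no subunits, Psmc3ip, a meiotic recombination factor also known as Hop2, had the largest log2 change of the 48 members. Controls held 117, 115, 116 and 116 normalized counts, BMP2 samples 4.54, 11.5, 10.6 and 7.59, and BMP4 samples 9.48, 17.1 and 14.4. The log2 change was -3.68 ± 0.239 with BMP2 (adjusted p = 8.65e-11) and -3.03 ± 0.258 with BMP4 (1.13e-08). With BMP5 (86.1, 71.3 and 55.7) and BMP7 (64.4, 83.8 and 62.5) it was -0.72 and -0.73 (adjusted p = 0.0463 and 0.0376), calls that 11 and 6 of 20 fits without 1 library lost. In TPM it went from 6.89, 7.54 and 7.09 to 2.76, 2.72 and 2.86 with Tgfb, a log2 change of -1.11 ± 0.0856 with the filter of 1 TPM (adjusted p = 9.88e-05). Exons of Psmc3ip overlap Mlx on the opposite strand. Psme3ip1, named for its binding to Psme3, was called higher with BMP2 (0.60), BMP4 (0.24) and Tgfb (0.25) by limma on the deposited values. At the same total its change was 0.14 with BMP2 and -0.16 with BMP4, and neither was called. Its BMP4 call was also lost with edgeR (0.15) and after quantile normalization (0.12).

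Of the 48 members, 15 have an exon that overlaps an exon of another gene in GENCODE M21, 13 of them on the opposite strand, and their values are uncertain to that extent. The 3 candidates under the filter were Psma8, Psmb11 and Psme2b. Psma8, the alpha subunit of germ cells, stood at 0 to 2.53 normalized counts, and Psmb11, the thymic catalytic subunit, at 0 to 8.87. Psme2b, a copy of Psme2, was at 0 in all 4 controls and at 30.7, 3.84, 27.1 and 15.2 with BMP2. Reads of near-identical copies can be divided between them, so the split between Psme2 and Psme2b is uncertain.

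Other genes of the pathway were taken from lists of ubiquitin genes and of assembly, shuttling and control factors. Of 21 factors in the table, BMP2 gave 13 higher and 4 lower, BMP4 8 and 4, BMP5 1 and 1, BMP7 4 and 1, and Tgfb 3 and 3. Over all genes the called shares, higher and lower together, were 75.1%, 65.1%, 26.3%, 32.4% and 64.3% in the same order. Zfand5, which stimulates the proteasome, rose by 2.87 under BMP2, by 0.66, 1.11 and 1.20 under BMP4, BMP5 and BMP7, and by 1.84 under Tgfb. Nfe2l1, the factor known to drive proteasome genes when the proteasome is inhibited, was higher by 1.08 with BMP2 and 0.81 with BMP4, and Nfe2l2 was higher by 1.73 with BMP4. Adrm1, the ubiquitin receptor Rpn13, was higher by 0.75 with BMP2. Uchl5, the deubiquitinase that Adrm1 recruits, was lower by -0.95 with BMP2. Akirin2, which carries proteasomes into the nucleus, was higher by 0.97 with BMP2. Of 6 ubiquitin genes, including activating enzymes, 4 were higher and 1 lower with BMP2, beside 36.8% and 38.4% of all genes, and among them were Uba1 (0.96), Ubb (0.93) and Rps27a (-1.04).

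Genes of the interferon response, the class from which Psmb8, Psmb9 and Psmb10 are known, rose with most ligands. All 19 were called higher under BMP2, 17 under BMP4, 18 under BMP5 and 15 under BMP7, with median log2 changes of 3.29, 1.90, 1.63 and 1.65, and 0 were called lower. Of all genes 36.8%, 33.7%, 16.5% and 19.2% were called higher. With Tgfb 8 of the 10 above the filter were higher, beside 31.4%. The 4 with the smallest p with BMP2 were Rtp4 (4.03), Isg15 (4.96), Usp18 (5.37) and Ifit3 (5.39). Irf1, a direct activator of immunoproteasome genes, rose by 1.38 with BMP2. The immunoproteasome genes ranged from -0.83 to 0.53 with BMP2, below the least change of the interferon list, 0.63 for Bst2. Of 12 genes of MHC class I peptide loading, 8 were higher and 4 lower with BMP2, beside 36.8% and 38.4% of all genes, and 10 higher and 1 lower with BMP4, beside 33.7% and 31.4%. Erap1, which trims the peptides, was lower with BMP2 by -1.41, and H2-D1, Tapbp and H2-K1 were higher by 1.81, 2.10 and 1.05. Tap1 and Tap2, which import the peptides, were higher with BMP2 by 0.90 and 1.07 and with BMP4 by 1.05 and 1.09. The list sums of immune markers given above overlapped between control and BMP2. They did not overlap between control and BMP4, where Itgam averaged 150 normalized counts against 41.6 in controls. The immune markers did not move together with BMP4. Of the 3 tested, 1 was called higher and 0 lower, with log2 changes from -0.97 to 1.81 and a median of -0.47. The part of immune cells in these values was not tested. In bulk samples fewer cells of a type and less RNA per cell cannot be told apart.

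Fresh and immortalised mesenchymal cells were compared without replicates, so no test is given. Of 46 members at a mean of at least 10 TPM, 1 was lower past 2-fold after immortalisation and 0 higher, beside 6.35% and 4.31% of all genes and 10.7% in either direction. That gene was Psmb8, at 21.1 TPM in fresh and 4.64 TPM in immortalised cells, 3.91-fold lower. Psmb9, under the filter, was at 3.61 and 1.49 TPM and Psmb10 at 32.1 and 23.9. The shares of the inducible subunits were 15.2% and 4.14% for Psmb8, 2.28% and 0.871% for Psmb9 and 21.1% and 14.1% for Psmb10.

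Psme1 and Psme2 were also lower, from 141 to 83.5 TPM and from 198 to 113 TPM. The median member was higher by 0.13 on the log2 scale, against 0.03 for all genes at that level, with 31 members higher and 15 lower. Psmd14, the deubiquitinase of the lid, had the largest rise, from 91.7 to 163 TPM. Psmg1 and Psmg2, the core chaperones with the largest change under BMP2 in organoids, stood at 28.6 and 21.8 TPM and at 24.8 and 27.8 TPM. The immune marker list summed to 118 TPM in fresh cells, 111 of it from Lyz2, and to 10.6 TPM in immortalised cells, and its part in the lower immunoproteasome values was not tested. The stromal and vessel markers summed to 15735 and 3560 TPM, with Col1a1 the highest in both, and 4 and 6 of the 7 epithelial markers were at 0.

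**Figure D5:**
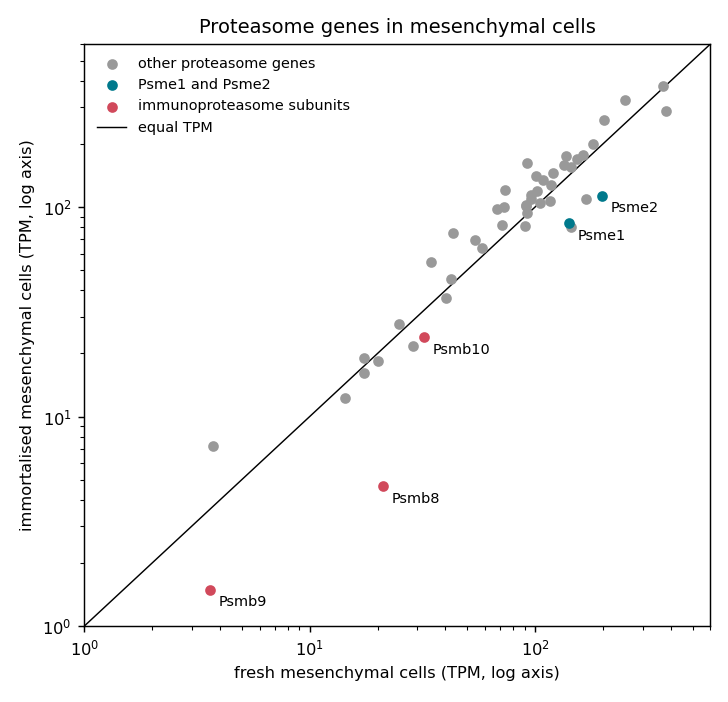
TPM of each proteasome gene in the fresh (horizontal, log axis) and the immortalised (vertical, log axis) mesenchymal sample, with a line at equal TPM. Psmb8 lies farthest below the line, at 21.1 against 4.64 TPM, and most other genes lie close to it.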

How the data were processed

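The members and gene lists were chosen with earlier results of these data known. Per the submitters' processing notes, Trim Galore, Salmon, DESeq2 and build GRCm39 were used; versions and annotation are not given in the sources used here. The deposited BMP table holds a signal, namely counts divided by 1 size factor per sample, as read from its values, which have 3 significant digits; whole reads were recovered for 100% of 180721 values at or below 20 reads, and 1 read was worth 0.826 to 1.28. The other deposited tables hold TPM, which sum to 1000000 and keep no depth. Libraries were sequenced in more than 1 run, to which samples are not assigned.

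Tests used limma 3.58.1 (R 4.3.3, with trend, two-sided) on log2(value + 1) of genes at a mean of at least 10, which left 14746 genes in the BMP table, in 1 fit of its 6 groups, and 7880 in the TGFb table. Benjamini-Hochberg adjustment ran over every gene of a table that passed the filter, and 0.05 was the threshold. The log2 scale with a pseudocount understates changes of low genes. Alternatives were other scalings, filters, pseudocount and fits, edgeR 4.0.16 and DESeq2 1.42.0 on recovered reads, and leaving out each library. The fits were tested on simulated data. Ratios were compared by exact permutation tests, whose smallest p is 0.0286 for 4 samples against 3 or 4 and 0.1 for 3 against 3. Besides the subunits compared by role, the 3 other members with the smallest p in each direction were named per comparison, and up to 4 genes per pathway list by smallest p with BMP2; Psma1, Psma2, Psma5, Psma6, Psma7, Psmb4, Psmc1, Psmc4, Psmd7, Psmd14, Nfe2l2, Adrm1, Pomp, Irf1, Bst2, Tap1 and Tap2 were chosen after their values were seen.

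Samples share replicate numbers in their titles. Deviations from group means of same-numbered samples correlated with r from 0.281 to 0.553 for BMP3, 0.19 to 0.225 for BMP4, 0.158 to 0.262 for BMP5 and 0.236 to 0.294 for BMP7 against control, above 0.1 in every pair, so the numbers were taken to pair those samples, and fits with the number as a block are given where a call changes. Some genes of the pathway lists are not reported here by name.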

Additional observations from a re-analysis of the deposited data

Results flagged for a closer look

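In 46 groups of 4 samples, 3 values lay far from the others of their group by Dixon's criterion, and chance flags about 1 group in 20. Psmb10 was at 724 normalized counts in control VI, a gap of 0.925 of the range. Psmg1 was at 443 in control IV (0.893), and Psmd4 at 2520 in the BMP2 sample IV (0.867).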

How the results depend on the processing

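Counts of called proteasome genes depended on the scaling and the filter, and the cause was not tested. Under the authors' scaling without blocks 20 members were called for BMP2 against BMP4 and 28 among the 5 ligands. Of all genes 66.8% and 84.1% were called there. At the same total the count was 36 for BMP4, beside 9964 of 14746 genes, and 45 among the 5 ligands. Quantile normalization gave 29 for BMP4 and 8 for BMP5, beside 9728 and 4810 of 14746 genes. No filter on low values gave 3 for BMP5 and 4 for BMP7. With the replicate block the count was 8 for BMP5, 32 for BMP2 against BMP4 and 20 for Tgfb; in the last 2 comparisons, and for BMP2 against control (38), the lowest same-number correlations were -0.04, -0.0192 and 0.0182, so those samples share only a number. Leaving out 1 library gave 30 to 36 for BMP2, 14 to 21 for BMP4, 2 to 7 for BMP5, 2 to 9 for BMP7, 14 to 28 for BMP2 against BMP4, 9 to 13 for Tgfb, 24 to 33 among the ligands and 0 for BMP3. Counts with blocks, without a filter, without 1 library and among the ligands at the same total have no all-gene count beside them. A move of the members in these settings cannot be told from a move of all genes. Among 56 results of single genes followed through the alternatives, some signs turned. At the same total these were Psme2 with BMP2 (-0.11) and Psme4 (-0.09), Psmd13 (-0.01) and Psma4 (-0.10) with BMP4. After quantile normalization they were Psme4 (-0.16) and Psma4 (-0.09) with BMP4. Members outside these results turned as well, such as Psme3ip1 with BMP4 at the same total (-0.16). All 14 core genes lay below 0 with BMP2 at the same total (-0.60 to -0.14). Among ratios, quantile normalization turned Psmb9 to Psmb6 with BMP7 (0.06) and Psmb10 to Psmb7 with BMP4 (0.24), and the F ratio of Psmb10 to Psmb7 became 1.64. Without 1 library, Psmb10 to Psmb7 ranged from -0.11 to 0.11 with BMP7 and from -0.04 to 0.23 with BMP5, Psmb9 to Psmb6 from -0.15 to 0.05 with BMP7, and the F ratio of Psmb8 to Psmb5 from 3.08 to 5.89. Of 1444 values of the 56 single-gene results under the alternatives, 92 lost their call and 6 turned. Depth in TPM is unknown, and Psmb9 at 30.7 to 119 normalized counts is measured with the counting error of few reads.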
